A study of Mus musculus with 4 samples.

Results

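The translation initiation and elongation factors described here were chosen by symbol: every row of either count table whose symbol began with Eif1 to Eif6, Eef1 or Eef2, with the kinases (Eif2ak1 to Eif2ak4 and Eef2k) left out. This gave 77 genes of the 26421 listed in either table, of which 75 were listed in both. Eef1a2 and Eif2s3x-ps1 were listed in experiment 2 only, and 13 of the 77 were pseudogenes or near copies whose reads may be shared with their parent genes. The question was whether the group was lower together with Eef1a1 in ST2+ cells that lack the GATA3-related tandem super-enhancers.

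The cells were αLP, a lymphoid progenitor population of mouse bone marrow that holds ILC progenitors, ILC2 precursors and ST2+ ILC2, sorted as Lin-CD127+FLT3-LPAM-1+, from WT mice and from G3SEKO mice, in which the tandem super-enhancers downstream of Gata3 were deleted with CRISPR-Cas9. The strain was C57BL/6 in the labels of experiment 1. Cells of both genotypes were marked with hashtag antibodies to MHC class I, pooled and sequenced by TAS-Seq, a whole-transcriptome method on BD Rhapsody beads, in 2 experiments. Hashtags A0307 to A0309 were WT and A0310 to A0312 G3SEKO in experiment 1, and in experiment 2 A0302 was WT and A0303 was taken as G3SEKO. The label of the experiment 2 hashtag library lists A0303 beside A0302 under WT, so every G3SEKO value of experiment 2 rests on that assignment. Per the study's methods each experiment drew on more mice of each genotype than there were hashtags, so the cells were pooled over mice, and no cell was tied to a mouse here.

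After the cell limits, 681 WT and 43 G3SEKO cells of experiment 1 and 5130 WT and 1159 G3SEKO cells of experiment 2 were kept, with medians of 396198, 509911, 29677 and 42814 reads per cell. Each cell went into the first gate it passed at ln(1 + reads per 10000) of at least 1, in the order Mki67+ (dividing cells), ST2+ (Il1rl1, the IL-33 receptor), Zbtb16+ (PLZF, a factor of ILC progenitors) and Icos+. The ST2+ gate held 418 WT and 2 G3SEKO cells in experiment 1 and 3515 WT and 49 G3SEKO cells in experiment 2. The Zbtb16+ gate held 97 and 20 cells, then 229 and 371, the Icos+ gate 81 and 7, then 544 and 321, and the Mki67+ gate 12 and 0, then 78 and 35. Reads were summed per experiment, genotype and gate, because cells are not replicates, and the 14 sums of at least 5 cells entered 1 edgeR fit with 5 residual degrees of freedom. The 2 ST2+ G3SEKO cells of experiment 1 were too few for the fit, and their values are given beside the others without a test. The ST2+ and Mki67+ comparisons of genotypes thus had 1 G3SEKO sum against 2 WT sums. The spread behind their errors and p values came from the groups with a sum in both experiments, mostly of other gates and from the same pools of mice. The lone G3SEKO sum added nothing to that spread and was assumed to vary like the others. Of the cells kept, 37 of experiment 1 and 357 of experiment 2 lay within 0.25 of the gate threshold for Il1rl1. Levels are given as CPM, a gene's reads per 1000000 reads on genes in a sum. Reads carried no count of molecules, and a CPM is a share of the library, so fewer molecules per cell cannot be told apart from more reads of other genes.

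Markers that the gates did not use were also read. In WT cells Gata3 was at 1388 and 1042 CPM in the ST2+ sums of experiments 1 and 2, and Il2ra, the IL-2 receptor α chain, at 499 and 588 CPM, against 10.9 and 74.0 CPM in Zbtb16+ cells. Over all gates together, Gata3 lay between 1000 and 1226 CPM in the 4 WT hashtags and between 419 and 659 CPM in the 4 G3SEKO hashtags. The ranges did not overlap, and A0302 and A0303 of experiment 2 had 1000 and 419 CPM, values that were not used to assign them. The lists of other lineages reported here were low in the WT ST2+ sums of experiments 1 and 2. The 5 T lineage markers together held 10.01 and 5.37 CPM and the 5 myeloid markers 15.5 and 2.04 CPM. The erythroid markers held 25.2 and 23.9 CPM and the NK and ILC1 markers 17.97 and 19.9 CPM. The LTi and ILC3 markers held 41.5 and 24.8 CPM.

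Translation starts when eIF2 brings the initiator tRNA to the small ribosomal subunit, with eIF1, eIF1A and the large eIF3 complex, and when the cap-binding factor eIF4E, the scaffold eIF4G and the helicase eIF4A bring in the mRNA. The 4E-BP proteins hold eIF4E back from eIF4G, eIF2B recharges eIF2 with GTP, and eIF5 and eIF5B allow the subunits to join. eEF1A then delivers each aminoacyl tRNA to the ribosome, with eEF1B as its exchange factor, eEF2 moves the ribosome along, and eIF5A helps at stalling sequences. Several of these mRNAs, with those of the ribosomal proteins, begin with a run of pyrimidines, the terminal oligopyrimidine (TOP) motif, through which mTOR signalling is known to set their translation.

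The start regions of Eef1a1 and the other 4 known TOP members with a start in the table are shown because the TOP class is described by its first bases, with that of Eif2s3x, which had the longest run among the members named by rule. Each is the 30 bases from 15 before the annotated start, on the strand of the gene, from RefSeq (GRCm38.p6), and capitals mark the longest run of C or T.
Eef1a1, chr9:78481710-78481739, minus strand: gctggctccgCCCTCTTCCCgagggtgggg
Eif3f, chr7:108934400-108934429, plus strand: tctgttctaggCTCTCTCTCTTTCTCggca
Eif2s3x, chrX:94212637-94212666, minus strand: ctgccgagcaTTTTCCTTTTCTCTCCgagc
Eef2, chr10:81176616-81176645, plus strand: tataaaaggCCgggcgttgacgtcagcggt
Eef1b2, chr1:63176816-63176845, plus strand: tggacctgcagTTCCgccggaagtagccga
Eif4b, chr15:102073758-102073787, plus strand: ggTCTTCCCgtcggacgccgcgccaccccc
The runs were 10 bases long in Eef1a1, 15 in Eif3f, 16 in Eif2s3x, 2 in Eef2, 4 in Eef1b2 and 7 in Eif4b. Runs were searched in the whole window, so a run can lie before the annotated start, as those of Eef2, Eef1b2 and Eif4b did. A run of at least 8 bases, searched on the strand of the gene only, was found in 11 of the 49 members with an annotated start in the table (22.4%) and in 3760 of 27025 genes (13.9%). Of 9 members listed as known TOP mRNAs (Eef1a1, Eef1b2, Eef1d, Eef1g, Eef2, Eif3e, Eif3f, Eif3h and Eif4b), 5 had a start in the table and 2 of these a run of that length. Annotated starts can lie several bases from the start used in a cell, so a window without the run says nothing about the class of the mRNA.

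The 77 members together took between 1.81% and 2.44% of all reads in the 14 fitted sums, and Eef1a1 alone was 33.3% to 41.8% of the member reads. Of the 77, 67 passed the filter on low counts among 20528 genes tested, and 59 had a mean of at least 10 CPM over the fitted sums, as did 9771 genes in all. Medians and counts of values below refer to these 59 members and 9771 genes, a set fixed by the mean over all sums and not by any comparison.

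No member passed the edgeR test, at an adjusted p under 0.05 over all genes, in any of the 7 comparisons. In ST2+ cells, G3SEKO against WT, 6 genes of all tested were called (0.0292%), all higher in G3SEKO and none a member. At an unadjusted p under 0.05, 8 of the 67 members and 1628 genes stood there, and limma voom called 0 members and 0 genes. DESeq2 called 1 member, Eif4e3, among 646 genes of the 13762 it gave an adjusted p (4.69%).

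Eef1a1, which encodes the main eEF1A of most tissues, had 8074 CPM in WT and 6333 CPM in the 2 G3SEKO ST2+ cells of experiment 1, and 10091 CPM in WT against 8054 CPM in G3SEKO in experiment 2. Both G3SEKO values lay below both WT values, the nearest pair being 8054 and 8074 CPM from different experiments, as was found for 17 of the 59 members (28.8%) and 29.7% of the 9771 genes with a mean of at least 10 CPM. In the fit its log2 fold change was -0.37 (SE 0.08, 95% interval -0.56 to -0.18), with an adjusted p of 0.30 (edgeR). The scaling of the libraries enters this value. The median log2 fold change of the 9771 genes in the same contrast was -0.22, and with library totals in place of TMM factors Eef1a1 was at -0.27. Over all settings tried the value ran from -0.55 with all cells thinned to 1 depth (adjusted p 0.075) to -0.20 with DESeq2 (adjusted p 0.74).

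**Figure D1:**
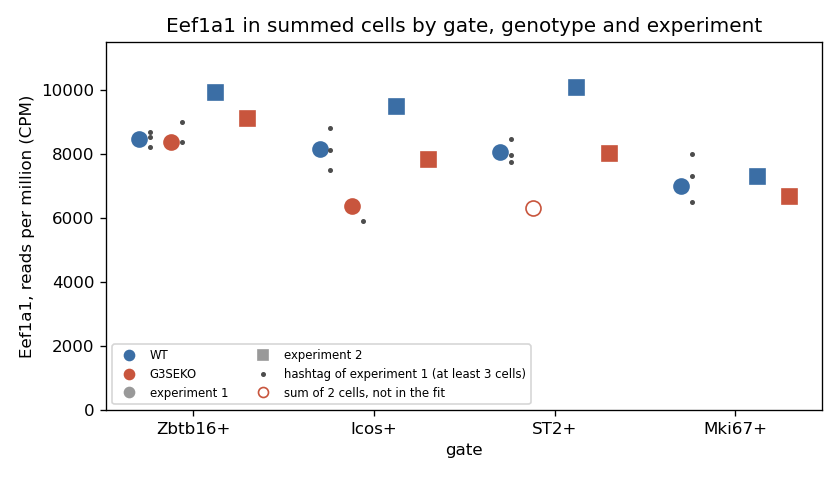
Eef1a1 in CPM (y axis) for each summed group of cells, by gate (x axis), genotype (colour) and experiment (shape), with the single hashtags of experiment 1 as small points. G3SEKO lay below WT of the same experiment in each gate, by the most in Icos+ and ST2+ cells, and experiment 2 lay above experiment 1 for the same genotype and gate.

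The summed level of all 77 members in ST2+ cells was 20341 CPM in WT and 19179 CPM in the 2 G3SEKO cells of experiment 1, and 24166 against 20968 CPM in experiment 2. This is a log2 ratio of -0.09 in experiment 1 and -0.20 in experiment 2, where it was -0.33 with TMM-scaled totals, the scaling of the fit. With Eef1a1 left out, the ratios were 0.07 and -0.12, so the other members summed lay above WT in one experiment and below it in the other. Member by member, 33 of 59 (55.9%) were lower in G3SEKO ST2+ cells of experiment 2, where 50.1% of all 9771 genes were lower, and the medians were -0.14 for the members and -0.003 for all genes. In the fit the medians were alike, -0.23 for the members and -0.22 for all genes. The middle 50% of the members ran from -0.49 to 0.30 in experiment 2, on both sides of 0, while Eef1a1 was at -0.33.

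Within the elongation factors, ST2+ cells of experiment 2 had 2648 CPM of Eef2 in WT and 2422 CPM in G3SEKO, 834 and 756 CPM of Eef1g, a scaffold subunit of eEF1B, and 371 and 320 CPM of Eef1d. Eef1b2, the exchange subunit, had 1140 CPM in WT and 1171 CPM in G3SEKO. In the 2 G3SEKO cells of experiment 1 Eef2 and Eef1b2 lay above WT, at 2435 against 2092 CPM and at 1374 against 954 CPM. Eef1g also lay above WT there, at 654 against 582 CPM, and Eef1d below it, at 65.2 against 235 CPM. In the fit the 95% interval was -0.57 to 0.15 for Eef2 and -0.54 to 0.57 for Eef1b2. Of the 9 known TOP members, 7 were lower in experiment 2, at a median log2 ratio of -0.21, and 4 in the 2 cells of experiment 1, at a median of 0.17.

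The members with the highest mean level of their class in WT ST2+ cells lay on both sides of WT. Eif1, which guards the choice of the start codon, had 468 CPM in WT and 324 CPM in G3SEKO in experiment 2 (598 and 404 CPM in experiment 1), with a log2 fold change of -0.59 (SE 0.21, adjusted p 0.56 in edgeR). Eif5a had 547 and 397 CPM in experiment 2 and 571 and 448 CPM in experiment 1, with -0.51 (SE 0.19, adjusted p 0.59). Both were thus lower in G3SEKO in each experiment, and neither passed the test. With all cells thinned to 1 depth Eif5a was at 0.003. Eif4ebp2, which binds eIF4E, had 149 CPM in WT and 98.7 CPM in G3SEKO in experiment 2 but 182 and 319 CPM in experiment 1. Eif5 had 512 and 444 CPM in experiment 2 and 447 and 322 CPM in experiment 1, and Eif3f, an eIF3 subunit, 599 and 621, then 473 and 452 CPM in that order. Eif2s2, the β subunit of eIF2, had 102 and 146, then 148 and 182 CPM. Eif2b2 had 56.3 and 71.3 CPM in experiment 2 but 68.6 and 20.005 CPM in experiment 1. Eif4g2, a homologue of the eIF4G scaffold, had 585 and 718, then 412 and 280.1 CPM, and the methyltransferase gene Eef2kmt 39.6 and 44.0, then 38.7 and 0 CPM. For Eif2b2, Eif4g2, Eef2kmt, Eif3f and Eif4ebp2 the experiments thus lay on opposite sides, experiment 1 with 2 G3SEKO cells. The fitted log2 fold changes of these 7 genes lay between -0.81 for Eif4ebp2 and 0.40 for Eif2s2 and Eef2kmt, with adjusted p values from 0.62 to 0.99 in edgeR.

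By class in the same cells of experiment 2, the median log2 ratio was -0.48 for the 5 eIF1 and eIF1A genes, -0.61 for the 4 eIF4E-binding genes, -0.14 for the 6 elongation factor genes over 10 CPM, -0.14 for the 11 eIF4 genes over 10 CPM and -0.11 for the 14 eIF3 genes. It was -0.21 for the 3 genes of eIF5, eIF5B and eIF6, -0.46 for Eif5a, the eIF5A gene over 10 CPM, and -0.045 for the 4 methyltransferase genes over 10 CPM. It was 0.52 for the 5 genes of eIF2 and other initiator tRNA carriers over 10 CPM (Eif2s1, Eif2s2, Eif2s3x, Eif2a and Eif2d) and 0.34 for the 5 eIF2B genes. In the 2 cells of experiment 1 the eIF2B genes were at -1.81 and the initiator tRNA carriers at 0.30, and every other class named here was below 0, from -0.091 for the elongation factors to -9.949 for the methyltransferases, where most genes had no read. The fitted medians were -0.20 for eIF2B, 0.35 for the carriers and between -1.17 and -0.037 for the other classes named. The classes with few members rest on few reads, since the 49 cells held 50548 member reads in all.

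Eif4e3, an eIF4E relative, was chosen for mention after its values were seen, as the only member that any tool called here. It had 100.6 CPM in WT ST2+ cells of experiment 1 and 95.8 CPM in those of experiment 2, against 19.1 CPM in G3SEKO of experiment 2, and 82.2 CPM in the 2 G3SEKO cells of experiment 1. The low value rested on 46 reads from 6 of 49 cells, while 676 of 3515 WT cells held a read. Its log2 fold change was -2.36 (SE 0.56) with an adjusted p of 0.33 in edgeR and -2.19 with 0.0028 in DESeq2.

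Further values stood beside the ST2+ comparison. The 91 ribosomal protein genes together held 127777 CPM in WT and 87869 CPM in G3SEKO ST2+ cells of experiment 2, a log2 ratio of -0.54, and -0.31 with the 2 cells of experiment 1. The G3SEKO ST2+ cells also carried other marker genes than the WT ones. Il1rl1, which defines the gate, was at 586 CPM in G3SEKO and 1370 CPM in WT of experiment 2. In experiment 2 all 5 ILC progenitor markers (Zbtb16, Pdcd1, Tox, Tox2 and Tcf7) were higher in G3SEKO, 1794 against 149 CPM summed, and 5 of 6 ST2+ ILC2 markers were lower, 2352 against 5116 CPM, with Klrg1 at 0 in G3SEKO. The 4 ILC2-committed markers summed to 2870 against 1647 CPM and the 5 proliferation markers to 106 against 48.1 CPM, with 2 of them higher, 3 lower and Tpx2 at 0 in G3SEKO. The 5 NK and ILC1 markers summed to 145 against 19.9 CPM and the 3 LTi and ILC3 markers to 134 against 24.8 CPM. The 5 T lineage markers summed to 14.5 against 5.37 CPM with Cd3e, Cd3g, Cd4 and Cd8a at 0, and the myeloid and erythroid markers were at 0 in G3SEKO against 2.04 and 23.9 CPM. In the 2 cells of experiment 1, G3SEKO before WT, the NK and ILC1 markers summed to 2952 against 17.97 CPM, the T lineage markers to 186 against 10.01 CPM, the ILC progenitor markers to 2195 against 192 CPM and the ST2+ ILC2 markers to 822 against 4896 CPM with Klrg1 at 0. Of the ILC progenitor markers 2 were higher and 3 lower in these 2 cells, with Tcf7 at 1943 CPM and Pdcd1 at 0. Of the T lineage markers 2 were higher and 3 lower, with Cd3g at 184 CPM and Cd3e and Cd4 at 0. Of the NK and ILC1 markers 3 were higher and 2 lower. The proliferation markers summed there to 1.48 against 56.7 CPM, the LTi and ILC3 markers to 1.48 against 41.5 CPM, the ILC2-committed markers to 1426 against 1759 CPM, the erythroid markers to 2.22 against 25.2 CPM and the myeloid markers to 17.8 against 15.5 CPM. The part of these differences in the values of the members was not tested.

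**Figure D2:**
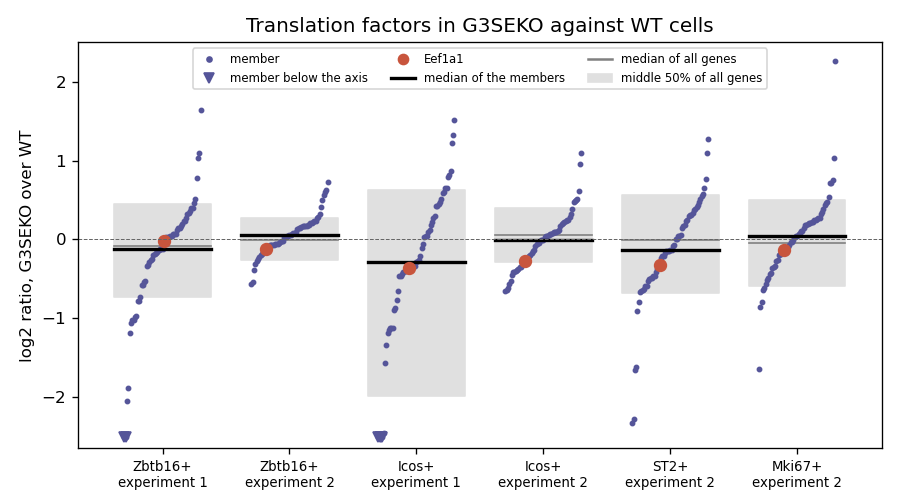
Log2 ratio of CPM, G3SEKO over WT (y axis), of each of 59 members in each gate and experiment with enough cells (x axis), with 2 reads added to each count. The members' median, the black line, lay within the grey band that holds the middle 50% of all 9771 genes in each column, and Eef1a1, the red point, lay at or below 0 in each.

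In Icos+ cells the G3SEKO values of Eef1a1 were also the lower ones. They were 8168 CPM in WT and 6368 CPM in G3SEKO in experiment 1, and 9526 and 7860 CPM in experiment 2. Both G3SEKO sums lay below both WT sums, as they did for 11 of the 59 members (18.6%) and 15.2% of all genes. The log2 fold change was -0.33 (SE 0.06, 95% interval -0.48 to -0.18) with an adjusted p of 0.58 in edgeR, which called 0 of 20528 genes here (0%), 7 members and 1121 genes standing at an unadjusted p under 0.05. DESeq2 called 237 genes and limma voom 0 genes, and neither called a member. With all cells thinned to 1 depth edgeR called Eef1a1, at -0.67 (SE 0.13, adjusted p 0.0022), with 80 other genes of 11877 tested (0.682% called in all).

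Eef2, Eef1b2 and Eef1g of Icos+ cells lay on the same side in both experiments. Eef2 had 2078 and 1732 CPM in experiment 1 and 2557 and 1966 CPM in experiment 2, WT before G3SEKO. Eef1b2 had 922 and 541, then 1069 and 837 CPM, and Eef1g 583 and 422, then 805 and 617 CPM. For each of these genes both G3SEKO sums were below the WT sum of the same experiment, whereas Eef1d had 228 and 306, then 349 and 223 CPM. Over all classes, 18 of 59 members (30.5%) were lower in both experiments, where 29.4% of all genes were, and 12 (20.3%) were higher in both, where 25.2% were. These shares were near the background, and the members' sum was lower by log2 ratios of -0.22 and -0.19. The eIF3 subunits Eif3e, Eif3g, Eif3h, Eif3k and Eif3m were lower in both experiments and Eif3a and Eif3l higher in both.

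Beside this, the ribosomal protein genes summed to 141798 and 101573 CPM in experiment 1 and to 115867 and 82689 CPM in experiment 2, WT before G3SEKO, which are log2 ratios of -0.48 and -0.49. All 6 ST2+ ILC2 markers were lower in the G3SEKO Icos+ sums of both experiments, at 858 against 2333 and 1062 against 2895 CPM summed, G3SEKO before WT from here. The 3 LTi and ILC3 markers were higher in both, at 1185 against 133 and 450 against 92.3 CPM, and the ILC progenitor markers summed to 852 against 838 and 1383 against 391 CPM. The ILC2-committed markers summed to 4378 against 3030 and 4162 against 2736 CPM. Icos, on that list, defines the gate, and cells that passed the threshold for Il1rl1, Zbtb16 or Mki67 were in other gates. The 5 proliferation markers summed to 3.17 against 121 CPM, with 4 of them lower, in experiment 1 and to 118 against 135 CPM, with all 5 lower, in experiment 2. The NK and ILC1 markers went opposite ways, at 13.0 against 258 and 267 against 32.5 CPM. The T, myeloid and erythroid lists each held at most 38.2 CPM in any Icos+ sum. The experiment 1 G3SEKO sum held 7 cells. The part of these values in those of the members was not tested.

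In Zbtb16+ cells the genotypes had nearly the same Eef1a1 level. It had 8483 CPM in WT and 8392 CPM in G3SEKO in experiment 1, where the 2 G3SEKO hashtags with at least 3 cells had 8395 and 8995 CPM and the 3 WT hashtags 8244 to 8685 CPM, so that the hashtags overlapped. In experiment 2 it had 9951 and 9129 CPM. The log2 fold change was -0.06 (SE 0.06, 95% interval -0.21 to 0.09). edgeR called 0 genes (0%), with 1 member and 475 genes at an unadjusted p under 0.05, and DESeq2 called 21 and limma voom 2 genes, none a member. The members' sum was 21766 and 21065 CPM, then 24444 and 23342 CPM, log2 ratios of -0.05 and -0.07. Of 59 members, 12 (20.3%) were lower in both experiments and 15 (25.4%) higher in both, where 28.0% and 23.3% of all genes were. Ribosomal protein genes were at log2 ratios of -0.14 and -0.10.

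Mki67+ cells gave a genotype comparison in experiment 2 only, since experiment 1 had no G3SEKO cell in that gate. Eef1a1 had 7333 CPM in WT and 6691 CPM in G3SEKO, with 7012 CPM in the WT sum of experiment 1, and a log2 fold change of -0.22 (SE 0.08, adjusted p 0.74 in edgeR). The members' sum was 20740 and 20111 CPM, 27 of 59 members (45.8%) were lower in G3SEKO where 52.2% of all genes were, and edgeR called 0 genes (0%), with 5 members and 1359 genes at an unadjusted p under 0.05. limma voom called 0 genes, and DESeq2 444 with 1 member, Eif5a2, an eIF5A gene under the minimum of 10 CPM. Beside this, G3SEKO before WT, the ribosomal protein genes summed to 67846 against 85189 CPM, a log2 ratio of -0.33. The ILC progenitor markers summed to 838 against 302.3 CPM, the NK and ILC1 markers to 109 against 12.2 CPM with Eomes at 0, the LTi and ILC3 markers to 208 against 71.3 CPM and the ST2+ ILC2 markers to 1039 against 2066 CPM. The ILC2-committed markers were at 2418 against 2400 CPM. The proliferation markers, of which Mki67 defines the gate, were at 6141 against 5092 CPM, and the T, myeloid and erythroid lists at 7.86 CPM or less. Their part in the values of the members was not tested.

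The difference between the genotype effects of ST2+ and Zbtb16+ cells was tested in the same fit. For Eef1a1 it was -0.31 (SE 0.10, 95% interval -0.55 to -0.07) with an adjusted p of 0.87, and edgeR called 0 genes (0%), with 5 members and 1165 genes at an unadjusted p under 0.05. A larger effect in ST2+ than in Zbtb16+ cells was therefore not shown. limma voom called 0 genes, and DESeq2 239 with 1 member, Eif4e3, on the same 46 reads.

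**Figure D3:**
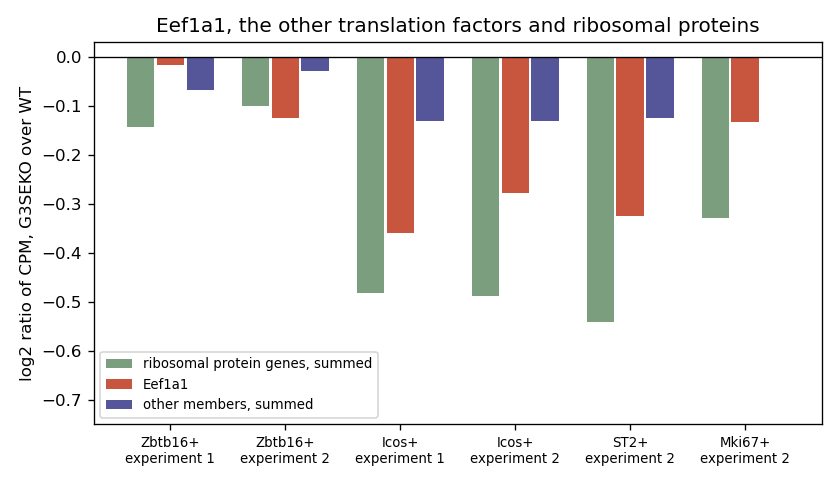
Log2 ratio of CPM, G3SEKO over WT (y axis), of the summed ribosomal protein genes, of Eef1a1 and of the other members summed, by gate and experiment (x axis). The 2 ST2+ G3SEKO cells of experiment 1 are not drawn. In the Icos+ and ST2+ columns the bars of the ribosomal protein genes reach -0.48 to -0.54, those of Eef1a1 -0.28 to -0.36 and those of the other members -0.12 to -0.13.

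Single cells, thinned to 1 depth, showed the spread behind the sums. In ST2+ cells of experiment 2 the median of Eef1a1 was 98.0 reads per 10000 in WT (quartiles 74.3 and 123) and 71.3 in G3SEKO (50.5 and 90.6). In Icos+ cells the medians were 92.1 and 72.8 in experiment 2 and 84.7 and 55.0 in experiment 1, and in Zbtb16+ cells 99.5 and 89.1, then 83.2 and 77.2. In Mki67+ cells of experiment 2 the order was the other way by a small margin, 68.3 in WT and 69.8 in G3SEKO, unlike in the sums. The quartile ranges of Eef1a1 in the genotypes overlapped in every gate. For all members summed those of Icos+ cells of experiment 1 did not, at 183 to 238 in WT and 160 to 175 in the 7 G3SEKO cells. Across the 3515 WT ST2+ cells of experiment 2, Eef1a1 and the summed ribosomal protein genes had a Spearman correlation of 0.287, the other members and the ribosomal protein genes 0.125, and Eef1a1 and the other members 0.067. Over all groups with at least 50 cells these ran from 0.258 to 0.490, from 0.095 to 0.405 and from 0.063 to 0.308. The points are cells of 1 capture at 1 depth, and shares of 1 total are not independent of each other.

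**Figure D4:**
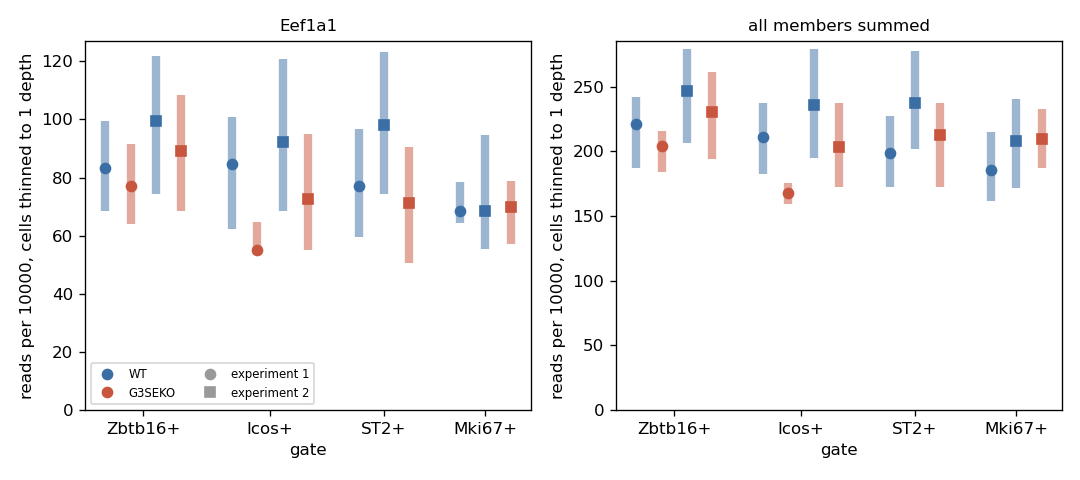
Reads per 10000 of Eef1a1 (left) and of all members summed (right) in single cells thinned to 1 depth, with the median as a point and the quartiles as a bar, by gate, genotype and experiment. G3SEKO medians lay below WT medians of the same experiment in Zbtb16+, Icos+ and ST2+ cells and not in Mki67+ cells, and all bars of the genotypes overlap but those of the members in Icos+ cells of experiment 1.

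Between WT ST2+ and WT Zbtb16+ cells the members as a group were at nearly the same level. The WT ST2+ sums used here are also those of the genotype comparison above, so the values are not independent of it. Eef1a1 had 8483 and 9951 CPM in Zbtb16+ and 8074 and 10091 CPM in ST2+ cells of experiments 1 and 2. It was lower in ST2+ cells in one experiment and higher in the other, and the log2 fold change of 0.05 (SE 0.06, 95% interval -0.10 to 0.20) changed sign under several settings. The members' sum had log2 ratios of -0.10 and -0.02, while the ribosomal protein genes had 0.18 and 0.36. edgeR called 41 genes (0.200%) and no member, with 3 members and 1466 genes at an unadjusted p under 0.05. DESeq2 called 645 genes and 0 members, and limma voom called 13 members among 2366 genes (11.5%), with a standard error as small as 0.000791 for Eef2 from 2 sums in each gate.

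Eif4e, Eif4a1 and Eif4ebp1 were chosen for mention after their values were seen, and several members of other classes had larger fitted fold changes than Eif4a1. Eif4e had 90.1 CPM in Zbtb16+ and 32.0 CPM in ST2+ cells of experiment 1, and 67.0 and 41.9 CPM in experiment 2, with a log2 fold change of -1.07 (SE 0.57, adjusted p 0.83 in edgeR and 0.012 in limma voom). Eif4a1, the helicase, had 542 and 362, then 539 and 391 CPM, with -0.45 (SE 0.14, adjusted p 0.47 in edgeR and 4.8e-06 in limma voom). Eif4ebp1 went the other way, with 5.41 and 42.6, then 10.7 and 38.5 CPM. In each of these 3 genes both ST2+ sums lay on one side of both Zbtb16+ sums. They lay below for 13 of 59 members (22.03%) and 28.9% of all genes, and above for 6 members (10.2%) and 19.8% of all genes. For Eif4ebp1 the log2 fold change of 2.62 had a 95% interval from -0.83 to 6.06, and the share of cells with a read was alike, 23 of 229 Zbtb16+ and 365 of 3515 ST2+ cells in experiment 2, and 29 of 97 and 117 of 418 in experiment 1, at median depths of 48465, 30998, 657629 and 369314 reads per cell. The reads were 156 and 5596 in experiment 2 and 422 and 7959 in experiment 1, so that the cells with any read held more of them in ST2+ cells, in counts without molecular identifiers.

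Eif5a had 455 and 571, then 440 and 547 CPM, and Eif1 461 and 598, then 381 and 468 CPM, Zbtb16+ before ST2+. Both were higher in ST2+ cells in each experiment, by log2 fold changes of 0.40 (SE 0.15) and 0.41 (SE 0.16) that did not pass the edgeR test and passed that of limma voom. Over all members, 23 of 59 (39.0%) were lower in ST2+ cells in both experiments, where 39.4% of all genes were, and 14 (23.7%) higher in both, where 29.7% were. Icos+ WT cells had Eef1a1 at 8168 and 9526 CPM, below WT Zbtb16+ cells in each experiment.

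**Figure D5:**
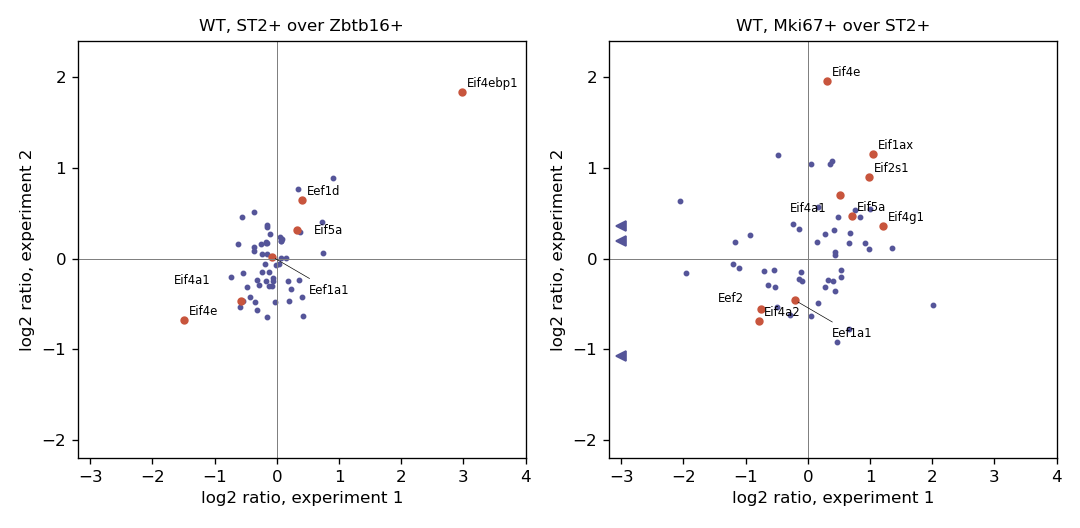
Log2 ratios of the 59 members in WT cells, experiment 1 (x axis) against experiment 2 (y axis), for ST2+ over Zbtb16+ cells (left) and Mki67+ over ST2+ cells (right), with triangles for members beyond the axis. Members in the upper right and lower left corners had the same direction in both experiments, among them Eif4ebp1 and Eif4e on the left and Eif1ax, Eif2s1, Eef2 and Eif4a2 on the right.

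Between dividing and ST2+ WT cells single factors lay on both sides. The members' sum was 19574 CPM in Mki67+ and 20341 CPM in ST2+ cells of experiment 1, and 20740 and 24166 CPM in experiment 2, log2 ratios of -0.06 and -0.22. edgeR called 39 genes (0.190%) and no member, with 11 members and 2207 genes at an unadjusted p under 0.05. DESeq2 called 1254 genes (7.96%), among them Eif1ax, Eif2s1, Eif4a1 and Eif4g1 as higher and Eif4a2 as lower in Mki67+ cells, and limma voom called 258 genes with Eif5a as the only member. Of 59 members, 24 (40.7%) were higher in Mki67+ cells in both experiments, where 27.6% of all genes were, and 16 (27.1%) lower in both, where 34.2% were.

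Eif4a1 had 362 CPM in ST2+ and 517 CPM in Mki67+ cells of experiment 1, and 391 and 636 CPM in experiment 2, with a log2 fold change of 0.66 (SE 0.14, adjusted p 0.15 in edgeR and 0.0014 in DESeq2). Eif1ax, an eIF1A gene, had 91.7 and 190, then 61.2 and 136 CPM, and Eif2s1, the α subunit of eIF2, 88.6 and 176, then 85.3 and 159 CPM. Eif5a had 571 and 930, then 547 and 760 CPM. Both Mki67+ sums lay above both ST2+ sums for each of these 4 genes, described because DESeq2 or limma voom called them, as they did for 18 of 59 members (30.5%) and 21.9% of all genes.

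Eef1a1 and Eef2 lay on the other side. Eef2 had 2092 CPM in ST2+ and 1241 CPM in Mki67+ cells of experiment 1, and 2648 and 1808 CPM in experiment 2, with -0.60 (SE 0.12, adjusted p 0.14 in edgeR), the smallest adjusted p of any member in this comparison. Eef1a1 had 8074 and 7012, then 10091 and 7333 CPM, with -0.29 (SE 0.06, adjusted p 0.17). For both genes each Mki67+ sum lay below each ST2+ sum, as in 9 of 59 members (15.3%) and 25.2% of all genes. With all cells thinned to 1 depth, edgeR called both (adjusted p 0.021 for Eef2 and 0.031 for Eef1a1) among 338 genes (2.85%). Eif4a2, a second eIF4A helicase gene, had 301.5 and 176, then 510.5 and 317 CPM. Eef1g was also lower in both experiments, at 582 and 372, then 834 and 683 CPM, while Eef1b2 had 954 and 1067, then 1140 and 813 CPM, Eef1d 235 and 293, then 371 and 316 CPM, and Eef1e1 29.03 and 55.1, then 29.7 and 33.4 CPM. The ribosomal protein genes were at log2 ratios of -0.42 and -0.59, beside -0.20 and -0.46 for Eef1a1. The Mki67+ sum of experiment 1 held 12 cells.

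Markers moved with this comparison too. Mki67+ before ST2+ and experiment 1 before 2, the ST2+ ILC2 markers summed to 2419 against 4896 and 2066 against 5116 CPM, and the ILC progenitor markers to 663 against 192 and 302.3 against 149 CPM. Il1rl1, on the first of these lists, defines the ST2+ gate and was at 484 against 1098 and 388 against 1370 CPM. The proliferation markers, of which Mki67 defines the gate, summed to 1930 against 56.7 and 5092 against 48.1 CPM. The NK and ILC1 markers stood at 165 against 17.97 CPM in experiment 1 and at 12.2 against 19.9 CPM in experiment 2. The LTi and ILC3 markers summed to 92.5 against 41.5 and 71.3 against 24.8 CPM and the ILC2-committed markers to 2068 against 1759 and 2400 against 1647 CPM, while the T, myeloid and erythroid lists each held at most 27.3 CPM in these sums. The part of these values in those of the members was not tested.

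Of 39 other genes of translation and its control (among them the eIF2 kinases, Eef2k, the poly(A)-binding protein gene Pabpc1, Mtor and Tpt1), all 39 were tested and 0 were called by edgeR in any of the 7 comparisons as described. Between ST2+ and Zbtb16+ cells edgeR called Eef2k at a gate threshold of 0.5 and with sums of at least 20 cells, and between Mki67+ and ST2+ cells Tpt1 with sums per hashtag. With all cells thinned to 1 depth edgeR called Eef2k between ST2+ and Zbtb16+ cells, Rack1 in the Icos+ comparison of genotypes and Tpt1 between Mki67+ and ST2+ cells. At an unadjusted p under 0.05 there were 8 in the ST2+ comparison of genotypes, 0 in Zbtb16+, 4 in Icos+, 1 in Mki67+, 2 between ST2+ and Zbtb16+, 4 between Mki67+ and ST2+ cells and 4 in the difference of the genotype effects, where 1628, 475, 1121, 1359, 1466, 2207 and 1165 of the 20528 genes stood in that order. limma voom called 9 between ST2+ and Zbtb16+ and 1 between Mki67+ and ST2+ cells, and DESeq2 called 2 genes in the ST2+ comparison of genotypes, Eef2k and Pdcd4, which are described because it did. It also called Eef2k between ST2+ and Zbtb16+ cells and in the difference of the genotype effects (adjusted p 0.034 in DESeq2). Their summed level in ST2+ cells of experiment 2 was 11265 CPM in WT and 9603 CPM in G3SEKO.

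Eef2k encodes the kinase that holds eEF2 back. In WT cells it had 278 CPM in Zbtb16+ and 52.1 CPM in ST2+ cells of experiment 1, and 267 and 50.7 CPM in experiment 2. In G3SEKO ST2+ cells it had 235 CPM in experiment 2 and 715 CPM in the 2 cells of experiment 1, and in G3SEKO Zbtb16+ cells 214 and 318 CPM. WT ST2+ cells thus held the low values of all these sums. A read was found in 19 of 49 G3SEKO and 542 of 3515 WT ST2+ cells of experiment 2. The log2 fold change between genotypes in ST2+ cells was 2.22 (SE 0.41, adjusted p 0.21 in edgeR and 0.00069 in DESeq2), and between WT ST2+ and Zbtb16+ cells -2.33 (SE 0.35, adjusted p 0.063 in edgeR, 2.4e-06 in DESeq2 and 2.8e-06 in limma voom). In thinned cells the latter was -2.497 (adjusted p 7.8e-06 in edgeR). Both comparisons share the WT ST2+ sums. Pdcd4, an inhibitor of eIF4A, had 148 and 158 CPM in WT and 39.4 CPM in G3SEKO ST2+ cells of experiment 2, with 95 reads in 18 of 49 cells (log2 fold change -2.08, adjusted p 0.46 in edgeR and 0.041 in DESeq2).

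The eIF2 γ subunit has a gene on each sex chromosome. Eif2s3x lay between 88.1 and 195 CPM in the 8 hashtags, while Eif2s3y had at most 17 reads in any of them and 0.241 CPM or less. Xist, which is made from the inactive X, lay between 818 and 1692 CPM in every hashtag, and Ddx3y, another Y-linked gene, was at 0.409 CPM or less. Kdm5d and Uty, also Y-linked, held more reads in the sums by gate. Kdm5d reached 10.8 CPM in G3SEKO Icos+ cells of experiment 1 and Uty 6.51 CPM in WT Mki67+ cells of experiment 2.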

How the data were processed

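The authors removed adapters with Cutadapt, aligned the reads with Bowtie2 to Ensembl GRCm38 genes, counted reads per gene and cell, kept barcodes above the inflection of the knee plot, assigned hashtags and deposited the counts as whole numbers per gene and cell, not normalized and with no molecular identifiers. The authors called hashtags and doublets from the hashtag reads, no doublet caller was run here, and the hashtag read files were not used. The tables listed 1033 and 7630 cells, of which 1031 and 7530 carried a genotype by their hashtag and 800 and 7522 were within the paper's read limits and at most 10% mitochondrial reads, and cells also needed ln(1 + reads per 10000) of Id2 of at least 1. The tables shared 11 cell numbers. Gates were exclusive, and reads were summed per experiment, genotype and gate, with at least 5 cells. The fitted sums held between 2410725 and 186620602 reads on genes. Counts were fitted with edgeR (TMM, quasi-likelihood, filterByExpr) on all gates together, with experiment as the block, since each experiment was 1 pooled capture. p-values were adjusted by Benjamini-Hochberg over all 20528 genes and called under 0.05. They measure the spread between sums of 2 experiments, not between mice. The 1 G3SEKO sum of the ST2+ and of the Mki67+ comparison adds nothing to that spread. Per-experiment log2 ratios added 2 reads to each count. Versions were R 4.3.3, edgeR 4.0.16, limma 3.58.1, DESeq2 1.42.0, Python 3.11.15, pandas 2.3.3, numpy 2.4.6 and scipy 1.17.1. The procedure was tested on simulated data with changes larger than most of the differences described here. That test therefore does not tell how well small differences would be found. The members, the role classes and the gene lists were chosen with earlier results of these data known. Genes named by rule were Eef1a1, the member of each role class with the highest mean CPM in WT ST2+ sums, the members called by edgeR (none) and the sex-linked pair, and others named were chosen after their values were seen. Alternatives were DESeq2, limma voom with quality weights, library totals, no filter, no block, thinned cells, other gates and thresholds, no Id2 limit, sums per hashtag and each experiment alone, and, chosen after seeing the data, sums of at least 20 cells and the members' sum without Eef1a1. One of the marker lists is not reported here.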

Additional observations from a re-analysis of the deposited data

Results flagged for a closer look

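In 9 of 51 groups examined (the named genes and the members' sum in each gate) 1 of the 4 WT hashtags stood apart from the other 3 by Dixon's measure of gap over range, which chance does in about 1 of 20 groups. A single WT hashtag, A0302, makes up experiment 2, and in 5 of the 9 it was the one apart, where hashtag and experiment cannot be told apart. In Zbtb16+ cells of A0302 Eif2s2 was at 71.1 CPM, with 182 CPM or more in the others, and the members' sum at 24444 CPM against 21945 CPM or less, while Eif5a was at 483 CPM in A0309 of experiment 1 against 443 CPM or less. In ST2+ cells of A0302 Eif4g2 was at 585 CPM against 416 CPM or less and Eif1 at 468 CPM against 594 CPM or more. In Mki67+ cells of A0307 of experiment 1 Eif2s2 was at 359 CPM against 151 CPM or less. Eif2s3y was at 0.0362 CPM in Zbtb16+ cells and 0.118 CPM in Icos+ cells of 1 hashtag each of experiment 1 and at 0 in the others, which rests on 1 and 2 reads and is apart by construction, since a single value above 0 always is. It was at 0.110 CPM, 16 reads, in ST2+ cells of A0302 against 0.0172 CPM or less.

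For 2 of the 12 named genes the genotypes differed in opposite directions in Zbtb16+ and Icos+ cells in both experiments, a difference that was not tested. The share of all genes with this pattern was not counted, so the 2 genes cannot be set against a background. In Zbtb16+ cells of experiment 2 both genes were close to 0. Eef2kmt had log2 ratios, G3SEKO over WT, of -0.531 and -0.059 in Zbtb16+ and 1.512 and 0.322 in Icos+ cells. Eif5 had -0.259 and -0.013 in Zbtb16+ and 0.116 and 0.247 in Icos+ cells.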

How the results depend on the processing

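The log2 fold change of Eef1a1 in ST2+ cells kept its sign under all 14 alternatives, between -0.548 and -0.199, and passed the test in none (adjusted p from 0.075 to 1), with -0.350 without experiment 2 and -0.325 without experiment 1. With no replicate block, the experiment left out of the model, it was -0.322 (adjusted p 0.81), and 0 members were called in any comparison, as with the block. edgeR called 0 members in each of the 7 comparisons, while DESeq2 called 1 in ST2+, 1 in Mki67+, 5 in the Mki67+ against ST2+ comparison and 1 in the difference of genotype effects, thinned cells gave 1 in Icos+ and 2 in Mki67+ against ST2+, and limma voom 13 in ST2+ against Zbtb16+ and 1 in Mki67+ against ST2+. Over all genes the calls varied more. In ST2+ cells edgeR called 6, DESeq2 646, thinned cells 232 and limma voom 0, in ST2+ against Zbtb16+ edgeR 41, DESeq2 645, thinned cells 589, limma voom 2366 and sums of at least 20 cells 201, and in Mki67+ against ST2+ edgeR 39, DESeq2 1254, thinned cells 338, limma voom 258 and sums of at least 20 cells 121. The cause of these gaps was not tested. The stage value of Eef1a1, 0.051, was -0.025 with library totals, -0.056 without Zbtb16+ and Icos+ cells that held Il2ra or Il1rl1 reads, -0.021 with sums per hashtag, -0.002 with sums of at least 20 cells and -0.071 without experiment 2. The log2 ratio of the members' sum in ST2+ cells, -0.205, was -0.327 with TMM-scaled totals and -0.085 without experiment 2, which leaves 2 G3SEKO cells. Named genes other than Eef1a1 in ST2+ cells changed sign 19 times and kept it 133 times. Eif2b2 was at 0.115 with DESeq2, 0.031 with library totals, 0.036 with no replicate block, 0.463 at a gate threshold of 1.5, 0.171 without the Il2ra or Il1rl1 cells, 0.137 with limma voom and 0.341 without experiment 1. Eef2kmt was at -0.201 in thinned cells, -0.244 at the threshold of 1.5 and -10.83 without experiment 2, and Eif3f at -0.075 and -0.044 there, -0.065 with limma voom and -0.066 without experiment 2. Without experiment 2 Eif4g2 was at -0.557 and Eif4ebp2 at 0.812. Eif5a was at 0.003 in thinned cells, and Eif2s3y at 0.226 with DESeq2 and 1.348 with limma voom. Fits of each gate alone and of gates of 1 gene gave no ST2+ or Mki67+ test, for want of residual degrees of freedom. The G3SEKO ST2+ values rest on 49 cells with 2410725 reads, and genes with few reads there could not show small differences.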
